A study of Mus musculus with 45 samples.

Results

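Epididymal fat of 129S6/SvEvTac mice (129S6), the fat pad beside the epididymis, was compared between a high-fat and a low-fat diet. The comparison takes every array that the labels give to epididymal fat of this strain, 3 per diet, 6 of the 45 arrays of the series. The low-fat arrays carry the replicate numbers 9, 10 and 11 and the high-fat arrays 12, 13 and 14. Values below are listed in that order. The mice were 6 months old and of an inbred strain, with no engineered allele or agent named in the labels. The remaining arrays of the series measured the same tissue in C57Bl/6 mice (B6), and liver and muscle in both strains. In B6 fat there were 4 arrays per diet.

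The starting material of each array was 25 µg of total RNA, turned into labelled cRNA. That RNA was a pool of 2 to 3 mice, so the spread between arrays is a spread between pools and hides differences between animals. The labels do not say whether pools were drawn from different cages or cohorts. The design text gives 1 diet only, with 21% of its calories as fat, 22% as protein and 57% as carbohydrate. It leaves unsaid which diet that was; the make-up of the other was not given in the sources used here. A difference is the high-fat mean minus the low-fat mean, in log2 units of RMA signal, ± its standard error, with n = 3 and 3 arrays. A gene was called when its adjusted p from limma over 8251 genes was under 0.05, and rose or fell is written of called genes only.

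White fat stores triglyceride in adipocytes and secretes hormones, among them leptin, which signals the size of the store, and resistin and adiponectin, which are tied to insulin sensitivity. When a fat depot enlarges, adipocytes swell, the matrix around them is rebuilt, and macrophages gather around dying adipocytes and take up lipid. Epididymal fat is the depot of the male mouse most often used to study these events. In bulk RNA, fewer cells of a type and less RNA per cell cannot be told apart.

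The regulatory windows of 4 called genes stand at the head of the results as examples of called genes of different roles: a pair of fat hormones, a macrophage protease and a metallothionein. Each is the 250 bases before the start site on the coding strand, from RefSeq on GRCm38.p6. Capitals mark matches on either strand to 1 motif per gene, and a match describes the letters only.
Lep, chr6:29059971-29060220, plus strand, C/EBP motif TTGCNNAA: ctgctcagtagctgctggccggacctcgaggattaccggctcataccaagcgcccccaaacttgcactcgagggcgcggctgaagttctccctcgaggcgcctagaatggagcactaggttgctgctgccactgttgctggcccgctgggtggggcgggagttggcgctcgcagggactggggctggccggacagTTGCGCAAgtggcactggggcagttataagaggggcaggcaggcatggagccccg
Retn, chr8:3655520-3655769, plus strand, C/EBP motif TTGCNNAA: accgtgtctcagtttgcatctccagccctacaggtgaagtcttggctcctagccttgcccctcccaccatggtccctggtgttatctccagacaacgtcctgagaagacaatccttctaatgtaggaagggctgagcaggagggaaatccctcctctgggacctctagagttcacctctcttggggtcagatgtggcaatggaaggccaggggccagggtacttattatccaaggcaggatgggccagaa
Ctss, chr3:95526536-95526785, plus strand, PU.1 core GAGGAA: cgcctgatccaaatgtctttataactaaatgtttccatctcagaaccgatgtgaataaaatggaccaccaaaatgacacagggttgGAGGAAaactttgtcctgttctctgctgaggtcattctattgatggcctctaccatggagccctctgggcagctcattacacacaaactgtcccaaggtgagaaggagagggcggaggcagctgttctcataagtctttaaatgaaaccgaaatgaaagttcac
Mt2, chr8:94172368-94172617, plus strand, metal response element core TGCNCNC: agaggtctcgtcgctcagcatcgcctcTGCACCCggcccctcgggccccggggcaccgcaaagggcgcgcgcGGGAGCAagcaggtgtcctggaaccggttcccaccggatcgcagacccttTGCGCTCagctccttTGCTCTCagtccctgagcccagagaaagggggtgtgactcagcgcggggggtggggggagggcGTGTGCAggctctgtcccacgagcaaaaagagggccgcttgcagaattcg
C/EBP proteins are factors of adipocyte differentiation, and PU.1 is a factor of myeloid cells. The Lep window held the C/EBP motif once, a site that reads as the motif on both strands, and the Retn window had no match. Of 32851 windows of this length, 9.56% held that motif and 23.3% the PU.1 core. TGCNCNC, a loose form of the metal response core with any base at each N, was in 44.4%. The Mt2 window matched this loose form 5 times. Among the genes called higher, 8 of 35 windows (30 genes matched) held the C/EBP motif, 6 the PU.1 core and 19 the loose metal response form. Among the genes called lower, 1, 5 and 11 of 23 windows (18 genes matched) held them. No test was made of these shares, and the motifs were chosen with the values known.

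The control signals used to judge RNA were not the same in the groups. Whether the RNA itself was broken was not tested. The Gapdh control probe sets compare the 3' end of the transcript with its 5' end, and the difference grows when RNA is broken. It was 0.184, 0.0741 and 0.238 log2 units on the low-fat arrays and 5.81, 5.93 and 0.368 on the high-fat arrays. High-fat replicates 12 and 13 stood far above every other 129S6 fat array, while high-fat replicate 14 lay near the low-fat arrays. Actb controls showed the same split, at 0.738, 0.903 and 0.782 against 2.39, 2.94 and 0.826. For Pcx the signal was 1.1, 0.51 and 1.5 against 3.45, 2.84 and 1.93, so that replicate 14 also lay above every low-fat array. For Tfrc it went the other way, at 0.933, 0.812 and 0.724 against 0.642, 0.585 and 0.51. Over the probe sets, high-fat replicate 14 correlated with the low-fat arrays at 0.977 to 0.981, replicate 12 at 0.953 to 0.959 and replicate 13 at 0.907 to 0.918, and the low-fat arrays with each other at 0.989 to 0.992. These are descriptions over probe sets of one platform. By exact permutation, two-sided, the diets gave p = 0.1 for Gapdh, the smallest that 3 against 3 arrays allow, for Pcx and for Tfrc, and 0.2 for Actb (0.167 for the first 3 and 0.25 for Actb after adjustment over 5 quality measures). For many of the genes and lists below, the difference of high-fat replicate 14 alone from the low-fat mean is given too. The part of RNA quality in the diet differences was not tested beyond these values.

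**Figure D1:**
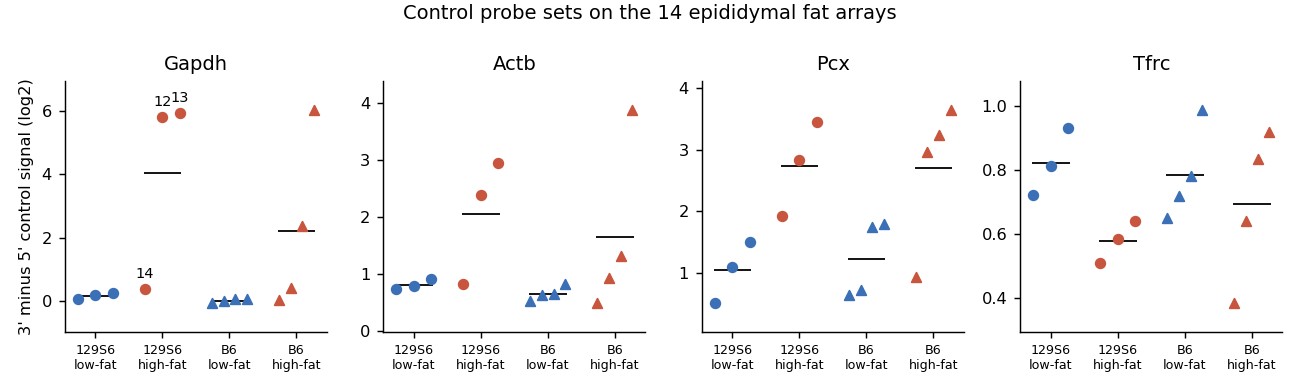
The 3' minus 5' signal of 4 control transcripts (log2) on the 14 epididymal fat arrays, with 1 point per array and a bar at each group mean; circles are 129S6, triangles B6, and the numbers name the 129S6 high-fat replicates. For Gapdh, replicates 12 and 13 reach 5.81 and 5.93, while replicate 14, at 0.368, sits beside the low-fat arrays.

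The tissue label was checked against white adipocyte markers. Of 10 such genes 8 were measured. Their summed signal ran from 20100 to 23900 on the low-fat arrays and was 25000, 22100 and 24200 on the high-fat arrays. That sum includes Lep, which was called higher, so it does not show whether the other markers were alike on the 2 diets. Of the 8 differences 4 were positive and 4 negative, with Lep called higher and Retn called lower. Adipoq, which encodes adiponectin, was at 12.62, 12.71 and 12.88 on the low-fat arrays and 12.61, 12.85 and 12.17 on the high-fat arrays. Low-fat replicate 9 also carried RNA of the epididymis: Gpx5, a secreted epididymal peroxidase, read 10.81 there and between 5.48 and 5.87 on the other 129S6 arrays. Adam7, another epididymal gene, was 9.47 there and at most 6.85 elsewhere. The 15 measured epididymis and germ cell markers summed to between 1400 and 3430 on the low-fat arrays and to 1590, 1380 and 1250 on the high-fat arrays. Low-fat replicate 11 held more of the seminal vesicle gene Svs4, at 7.22 against at most 3.82.

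The high-fat diet came with 37 genes called higher and 25 called lower. These are 0.448% and 0.303% of the genes tested, 0.751% together. At an unadjusted p under 0.05 there were 554 higher and 594 lower. All 62 called genes had groups that did not overlap. Over all genes the high-fat arrays lay entirely above the low-fat arrays for 14.5% and entirely below for 13.9%, and the median difference was 0.006. In replicate 14 alone, each of the 62 called genes kept its direction and at least 0.644 times its difference. The calls were made with replicate 14 among the arrays, so this describes them and is no separate test. With replicate 14 as the only high-fat array, limma called 3 genes, of which Cstb alone was among the 62. The lone array is assumed there to vary like the other groups. With the Gapdh signal as a covariate there were 37 calls, 25 of them among the 62. The number of calls also rested on single arrays. Without low-fat replicate 9 or 10 it was 11 each time, without low-fat replicate 11 it was 29, and without high-fat replicate 12, 13 or 14 it was 32, 34 or 175. The genes called whichever of the 6 arrays was left out were Lep, Scd2, Apobec1, Cstb, Lgals3, Agt, Tst, Ptges, Apcdd1 and Pxmp2, and each of the other 52 lost its call without at least 1 array.

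**Figure D2:**
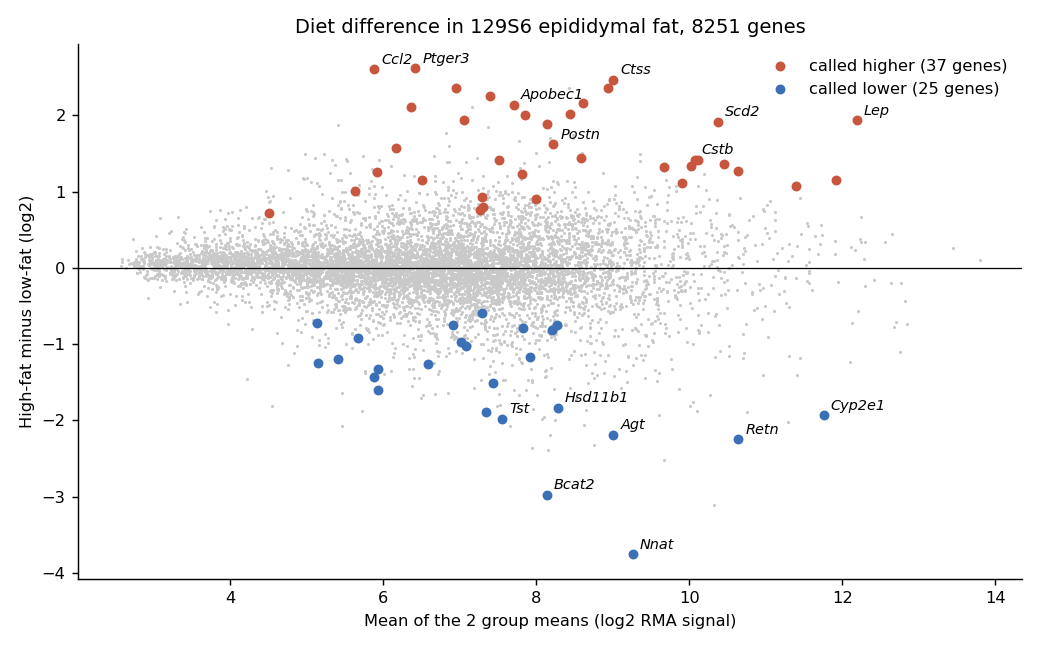
Diet difference (high-fat minus low-fat, log2) against the mean signal (log2) for 8251 genes in 129S6 epididymal fat, with 1 point per gene; red points are the 37 genes called higher and blue points the 25 called lower. Lep is the brightest called gene, and Nnat and Bcat2 have the lowest differences of those called.

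Among the fat hormones, leptin rose while resistin and angiotensinogen fell. Lep was at 10.99, 11.13 and 11.54 on the low-fat arrays and 13.36, 12.93 and 13.19 on the high-fat arrays. Every high-fat array lay above every low-fat array, and the diet difference was 1.94 ± 0.20 (3.83-fold, adjusted p = 0.000817). It was 1.97 in replicate 14 alone. A second probe set of Lep gave a difference of 0.76 ± 0.49 that was not called (with all probe sets tested, adjusted p = 0.494). Retn, which encodes resistin, was at 11.73, 11.65 and 11.90 against 10.20, 9.43 and 8.91. It was lowest in replicate 14, the high-fat array with the low Gapdh signal. Its difference was -2.24 ± 0.35 (4.74-fold lower, adjusted p = 0.0101) and -2.85 in replicate 14. Its call was lost without any one of the 3 low-fat arrays, with an adjusted p of at most 0.0684. Agt, the precursor of angiotensin, read 10.42, 9.86 and 10.03 against 7.83, 7.73 and 8.17, a difference of -2.19 ± 0.31 (adjusted p = 0.00558). The 3 high-fat arrays lay within a narrow band below the low-fat arrays. Of 18 measured adipokine and secreted genes, these 3 were called, with a list median of -0.16. Adiponectin was not called, at -0.19 ± 0.28 (adjusted p = 0.77), and its groups overlapped.

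Nnat had the largest difference of any called gene. It encodes neuronatin, a small membrane protein of the endoplasmic reticulum from an imprinted gene, expressed from the paternal allele. Its signal was 11.11, 11.01 and 11.29 on the low-fat arrays and 7.31, 6.19 and 8.64 on the high-fat arrays. All 3 high-fat arrays were far below, and replicates 12 and 13 were lower than replicate 14. The difference was -3.76 ± 0.56 (13.5-fold lower, adjusted p = 0.00831), and -2.49 in replicate 14 alone. The call was lost without low-fat replicate 9 or 10, with an adjusted p of up to 0.0592. Mest, another paternally expressed gene and a marker of fat expansion in mice, was at 7.82, 7.34 and 7.67 against 9.43, 9.33 and 9.31. The high-fat arrays agreed closely and lay above, but Mest did not pass the threshold (1.75 ± 0.44, adjusted p = 0.101). Of 16 measured imprinted and adipose expansion genes, Nnat was the only one called. The list median was -0.34, and 0.07 in replicate 14 alone.

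**Figure D3:**
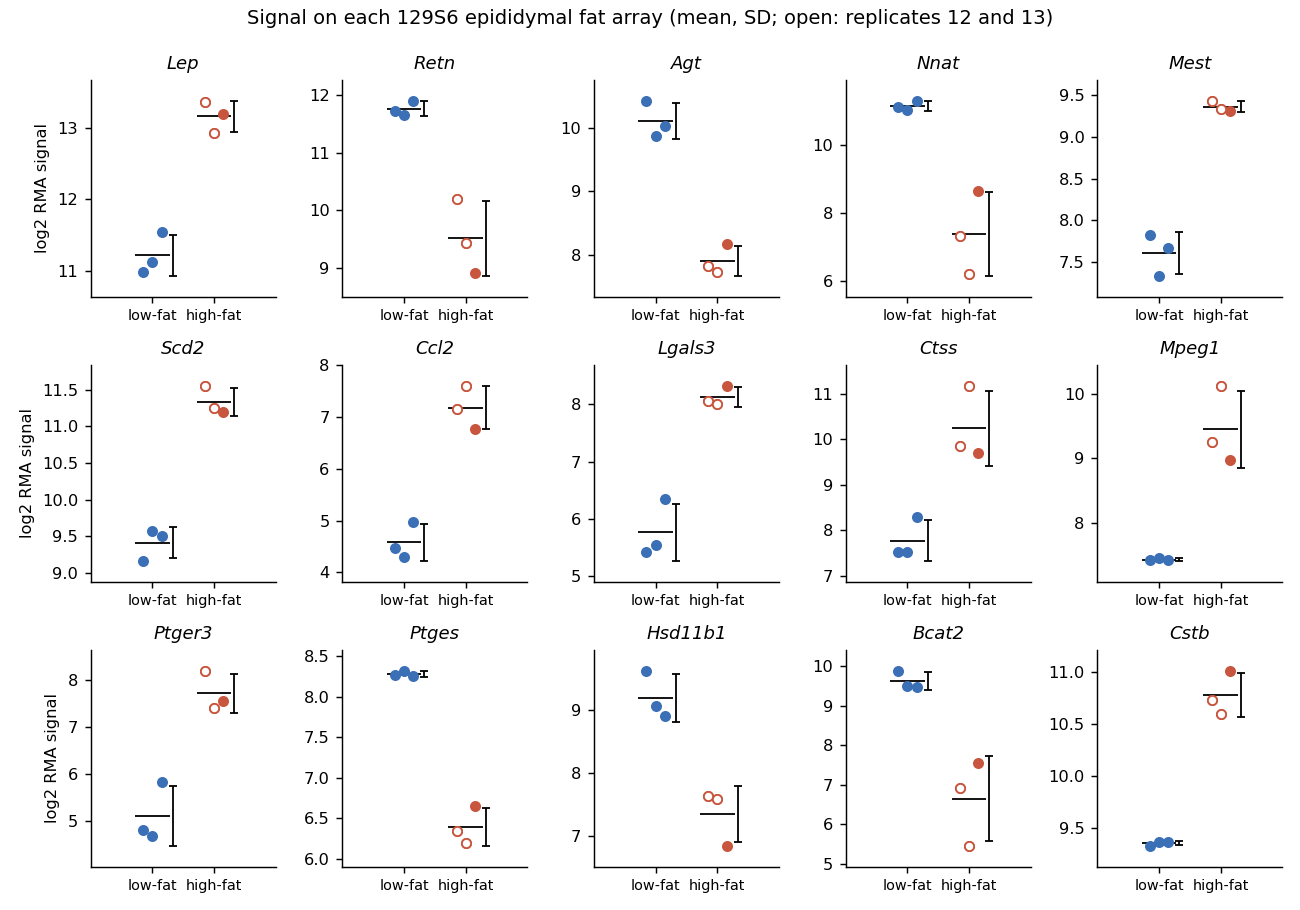
Signal (log2 RMA) of 15 genes on each of the 6 arrays of 129S6 epididymal fat, low-fat in blue and high-fat in red, with a bar at the mean and a whisker of 1 SD; open circles are high-fat replicates 12 and 13, of high Gapdh signal. Diets do not overlap in any panel, and the filled replicate 14 lies with the open circles for Lep, Agt, Mest and Scd2.

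The high-fat diet came with higher signals of 6 macrophage genes. Of 33 measured macrophage markers, 6 rose and none fell, 28 differences were positive, and the list median was 0.58 beside 0.006 over all genes. Their summed signal was 8710 to 11800 on the low-fat arrays and 11400, 17900 and 18200 on the high-fat arrays, so that replicate 12 lay within the low-fat range. The list median was 0.56 in replicate 14 alone. The 6 called genes were Ctss, Tyrobp, Lgals3, Mpeg1, Mmp12 and Lgmn. Ctss encodes cathepsin S, a lysosomal protease of antigen-presenting cells. It was at 7.51, 7.52 and 8.28 on the low-fat arrays and 9.84, 11.17 and 9.69 on the high-fat arrays. Replicate 13 was the highest, and the difference was 2.47 ± 0.39 (5.53-fold, adjusted p = 0.0101) or 1.92 in replicate 14. Lgals3 encodes galectin-3, a lectin abundant in macrophages. It was at 5.42, 5.55 and 6.34 against 8.05, 8.00 and 8.32, the high-fat arrays lying close together above the others (2.35 ± 0.30, adjusted p = 0.00388). Tyrobp encodes the adaptor DAP12 of myeloid receptors and rose by 2.36 ± 0.41 (adjusted p = 0.0205). Mpeg1 encodes a pore-forming protein of phagocytes. Its low-fat values lay within 7.42 to 7.45 and its high-fat values were 9.25, 10.12 and 8.97 (2.01 ± 0.30, adjusted p = 0.00831). Mmp12, the macrophage elastase, rose by 1.94 ± 0.40 (adjusted p = 0.0483), and its second probe set by 2.35 ± 0.41 (with all probe sets tested, adjusted p = 0.0234). In that same limma test of all probe sets, the first probe set of Mmp12 missed the threshold (adjusted p = 0.055). Lgmn, the lysosomal protease legumain, rose by 1.41 ± 0.23 (adjusted p = 0.0117). With the Gapdh signal as a covariate, the calls of Tyrobp (adjusted p = 0.118) and Mmp12 (adjusted p = 0.269) were lost.

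Other macrophage markers were not called. Adgre1, a classical surface marker of mouse macrophages, was at 7.29, 6.95 and 7.50 against 8.74, 11.35 and 8.72. Replicate 13 stood apart from the other high-fat arrays, and the gene was not called (2.35 ± 0.58, adjusted p = 0.0995). C1qa, a chain of complement C1q made by tissue macrophages, was at 9.59, 9.42 and 9.97 against 6.25, 6.46 and 10.09. It was low on the 2 arrays of high Gapdh signal only, and its difference was -2.06 ± 1.19 over the 3 arrays and 0.43 in replicate 14. Cd68 was at 8.66, 7.42 and 9.47 on the high-fat arrays against 7.58 to 7.92. It was highest in replicate 14 and overlapped the low-fat group (0.78 ± 0.63, adjusted p = 0.595). H2-Aa, an MHC class II chain, likewise read 9.14, 8.33 and 10.47 against 9.85 to 10.31. Both C1qa and H2-Aa were thus low where the Gapdh signal was high. Over all genes, 62 genes had a mean on replicates 12 and 13 at least 2 log2 units below the low-fat mean. In replicate 14, 7 of these were at least 1 unit below it, and 5 of the 62 were called lower. In the other direction there were 20 such genes, 13 of them at least 1 unit above in replicate 14 and 12 called higher.

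Among signals that draw immune cells, Ccl2, the chief attractant of monocytes, rose. It was at 4.47, 4.29 and 4.97 on the low-fat arrays and 7.16, 7.60 and 6.77 on the high-fat arrays, without overlap (2.61 ± 0.40, 6.09-fold, adjusted p = 0.00886). In replicate 14 the difference was 2.20. Ccl9, another chemokine of myeloid cells, rose by 1.42 ± 0.26 (adjusted p = 0.0263). Of 45 measured chemokines, cytokines and acute-phase genes, these 2 were called higher and none lower, and the list median was 0.10. Saa3, an acute-phase gene of fat, was at 8.17, 6.91 and 7.18 against 6.10, 6.17 and 6.93, so its groups overlapped. Ccr2, the receptor of Ccl2, was at 6.34, 6.22 and 5.50 against 4.65 to 5.02 and was not called (adjusted p = 0.125). Lilr4b, an immunoglobulin-like receptor of myeloid cells, rose by 2.10 ± 0.36 (adjusted p = 0.0194). C2, a complement component, fell by 1.16 (SE 0.21, adjusted p = 0.0237). With the Gapdh covariate the calls of Ccl9 and Lilr4b were lost (adjusted p = 0.126 and 0.0616).

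Cstb, Ctsl and Ctsz were named after their values were seen and stand for no list. Cstb encodes cystatin B, which inhibits cathepsins. Its low-fat values were 9.33, 9.37 and 9.37 and its high-fat values 10.73, 10.60 and 11.01, a difference of 1.42 ± 0.15 (adjusted p = 0.000817). In replicate 14 it was the largest of the 3, at 1.65 (adjusted p = 0.0287). Ctsl, cathepsin L, rose by 1.27 ± 0.24 and Ctsz, cathepsin Z, by 1.23 ± 0.22, with adjusted p values of 0.0267 and 0.022. Npc2, which moves cholesterol out of lysosomes, was at 10.78, 11.08 and 10.73 against 12.20, 11.38 and 12.22 (1.07 ± 0.22, adjusted p = 0.0424). With the Gapdh covariate Cstb kept its call, while Ctsl, Ctsz and Npc2 lost theirs, with adjusted p values of 0.126, 0.126 and 0.115. Of the cathepsins in the macrophage list, Ctss rose, as given above. Ctsd differed by -0.13 and Ctsk by 0.05, and neither of these was called.

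**Figure D4:**
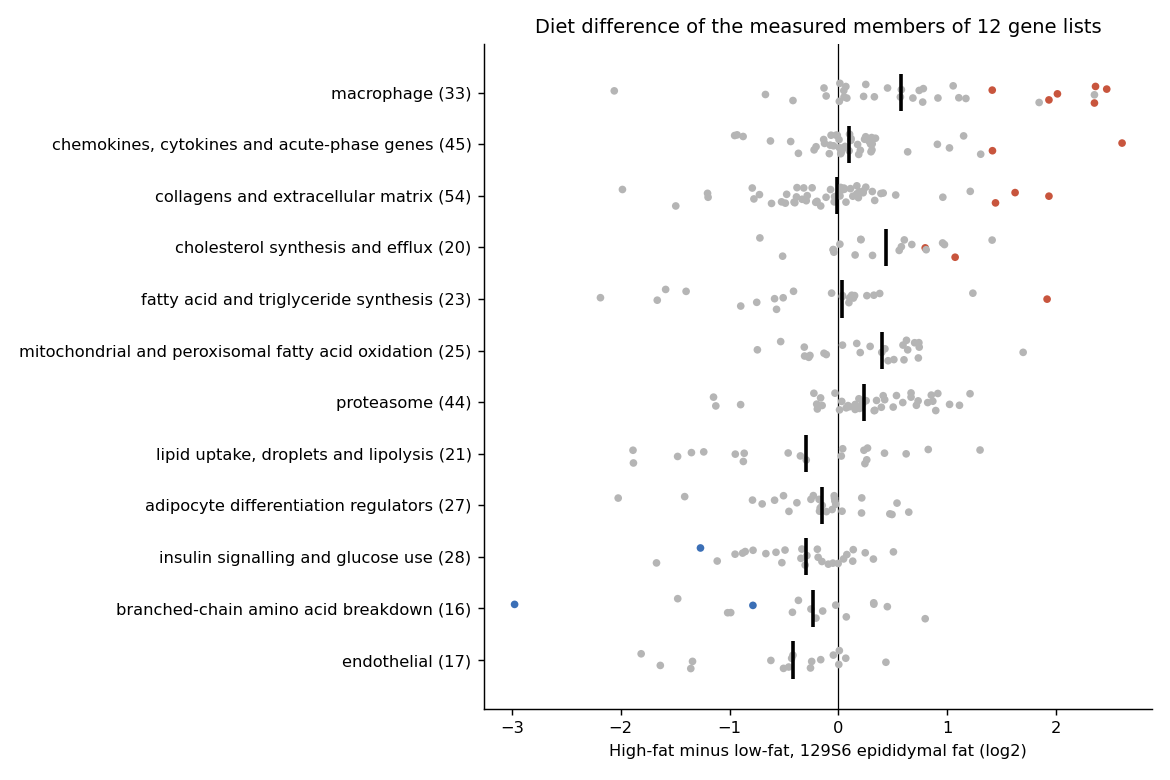
Diet difference (high-fat minus low-fat, log2) of the measured members of 12 gene lists in 129S6 epididymal fat, with 1 point per gene, the number measured in brackets, and a bar at the list median; red and blue points are genes called higher and lower. The macrophage list, with a median of 0.58, holds 6 red points, and endothelial members lie mostly below 0.

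Scd2 rose, and no other fat synthesis gene was called. Scd2, a stearoyl-CoA desaturase that makes monounsaturated fatty acids, was at 9.17, 9.57 and 9.51 against 11.55, 11.25 and 11.20. The high-fat arrays lay close together above the rest (1.92 ± 0.20, 3.78-fold, adjusted p = 0.000817). Another Scd2 probe set rose by 2.33 ± 0.29 (with all probe sets tested, adjusted p = 0.00319), and replicate 14 alone gave 1.78. Scd1, the main desaturase of fat, was near the top of the scale, at 13.60, 13.84 and 13.79 against 14.01, 13.73 and 13.79, and overlapped. Fasn, fatty acid synthase, was at 12.53, 12.33 and 12.60 against 12.20, 11.26 and 12.29, lowest in replicate 13 (-0.57 ± 0.30, adjusted p = 0.408). Me1, malic enzyme, which supplies NADPH, read 9.56, 9.43 and 9.74 against 11.06, 10.67 and 10.70 and narrowly missed the threshold (1.24 ± 0.28, adjusted p = 0.0632). Of 23 measured synthesis genes Scd2 was the only one called, and the median was 0.04. Srebf1, the factor that drives these enzymes, differed by -0.59 ± 0.17 (adjusted p = 0.15).

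Of 20 measured genes of cholesterol synthesis and efflux, 2 rose and none fell. Of these 20, 15 differences were positive and 11 had all high-fat arrays above all low-fat arrays, and the median was 0.44 (0.50 in replicate 14). Over all 8251 genes, 4186 differences were positive, 14.5% had all high-fat arrays above, and 0.448% were called higher. Those that rose were Npc2 and Lss, and both calls were lost with the Gapdh covariate (adjusted p = 0.115 for Npc2). Lss encodes lanosterol synthase and read 6.81, 6.86 and 7.04 against 7.94, 7.48 and 7.68 (0.80 ± 0.15, adjusted p = 0.0329, and 0.0553 with the Gapdh covariate). Fatty acid oxidation genes had a median of 0.40 over 25 members and 0.42 in replicate 14, with no member called. Of these, 5 reached an unadjusted p under 0.05, all higher, beside 554 higher and 594 lower of all 8251 genes. With the Gapdh signal as a covariate the median of these oxidation genes was 0.05. Pdk4, a kinase that shuts pyruvate out of oxidation, was at 7.28, 7.73 and 7.89 against 9.01, 9.83 and 9.16 (1.70 ± 0.44, adjusted p = 0.119). Proteasome genes had a median of 0.24 over 44 members (0.48 in replicate 14), also with none called.

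Several genes of fat cells differed between the high-fat arrays. Lipe, hormone-sensitive lipase, read 11.09, 11.01 and 11.02 on the low-fat arrays and 8.57, 8.07 and 10.83 on the high-fat arrays. Replicates 12 and 13 were low and replicate 14 lay close to the low-fat arrays, so the difference was -1.88 ± 0.61 over 3 arrays and -0.21 in replicate 14. Cebpa, a master factor of adipocytes, gave 12.31, 12.21 and 12.40 against 9.80, 9.19 and 11.86, and its difference shrank from -2.02 to -0.44. Gpx3, an antioxidant enzyme secreted by fat, gave 11.76, 12.20 and 11.67 against 8.25, 7.39 and 10.65. None of the 3 was called. Pparg, the receptor that drives fat cell formation, differed by 0.54 ± 0.34. Of 21 measured genes of lipid uptake, droplets and lipolysis, and of 27 adipocyte regulators, none was called. At an unadjusted p under 0.05, 2 and 1 were higher and 3 and 7 lower, beside 554 higher and 594 lower of all 8251 genes. The medians of these 2 lists were -0.30 and -0.15 over the 3 arrays, and 0.19 and -0.17 in replicate 14. Lpl, lipoprotein lipase, differed by 0.27 ± 0.22 and its second probe set by -1.57 ± 1.21, with adjusted p values of 0.597 and 0.576.

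Bcat2, Ivd and Pygb, genes of amino acid and glycogen use, fell. Bcat2, the mitochondrial enzyme that begins the breakdown of branched-chain amino acids, was at 9.88, 9.50 and 9.48 against 6.93, 5.46 and 7.55. Every high-fat array was well below, replicate 13 lowest (-2.98 ± 0.62, 7.86-fold lower, adjusted p = 0.0475), and replicate 14 alone gave -2.07. The call was lost without any one low-fat array and without high-fat replicate 12 or 13, with an adjusted p of up to 0.224. With the Gapdh covariate the difference was -1.69 (adjusted p = 0.185). Ivd, isovaleryl-CoA dehydrogenase of the leucine path, read 8.29, 8.11 and 8.27 against 7.68, 7.27 and 7.37 (-0.79 ± 0.15, adjusted p = 0.0329). Of 16 measured genes of this breakdown, these 2 fell and none rose, with a median of -0.23. With that covariate Ivd and Pygb also missed the threshold, with adjusted p values of 0.0607 and 0.208. Pygb, a glycogen phosphorylase, fell by 1.27 (SE 0.25, adjusted p = 0.0408) and was the only gene called of 28 in insulin signalling and glucose use. That list's median was -0.30 over the 3 arrays and -0.08 in replicate 14. Slc2a4, the insulin-sensitive glucose transporter GLUT4, gave 8.99, 8.64 and 8.90 against 7.20, 6.50 and 7.82 and missed the threshold (-1.67 ± 0.37, adjusted p = 0.0632).

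Hsd11b1, Cyp2e1, Tst and Gstt1, enzymes of steroids and small molecules, fell, while Aldh1a7 and Mt2 rose. Hsd11b1, which turns inactive 11-keto steroids into active glucocorticoid inside fat, was at 9.62, 9.06 and 8.90 against 7.64, 7.59 and 6.85. It was lowest in replicate 14 (-1.83 ± 0.29, adjusted p = 0.0101, and -2.35 there). Nr3c1, the glucocorticoid receptor, was at 5.43 to 5.47 against 3.41, 3.13 and 4.36 and was not called (adjusted p = 0.0851). Cyp2e1, a cytochrome P450 of small molecules, fell from 12.88, 12.62 and 12.66 to 11.57, 10.32 and 10.48 (-1.93 ± 0.33, adjusted p = 0.0194). Of 11 measured liver markers Cyp2e1 is the only one called. The 11 summed to 7670 to 11900 on the low-fat arrays and 4760, 2060 and 4050 on the high-fat arrays. Cyp2e1 is a bright part of that sum, so the sum restates its fall and does not describe the other markers. Over the 11 markers the median difference was -0.195, and 0.15 in replicate 14. Alb, the defining one, was at 11.12, 8.77 and 8.97 against 9.64, 7.10 and 10.19, and the part of liver RNA was not tested. Tst, the mitochondrial sulfurtransferase rhodanese, read 8.89, 8.49 and 8.25 against 6.54, 6.36 and 6.79. Its high-fat arrays lay close together (-1.98 ± 0.24, adjusted p = 0.00239). Gstt1, a glutathione transferase, fell by 0.75 (SE 0.16, adjusted p = 0.0433). Aldh1a7, an aldehyde dehydrogenase, rose by 2.17 ± 0.32 (adjusted p = 0.00831). Mt2, a metal-binding metallothionein, read 9.61, 9.81 and 9.93 against 11.04, 10.98 and 11.39 (1.36 ± 0.21, adjusted p = 0.0101). Its neighbour in function Mt1 missed the threshold (0.73 ± 0.16, adjusted p = 0.0592). Of 28 measured antioxidant and metal response genes, Mt2 rose and Gstt1 fell, and no other was called. Both calls were lost with the Gapdh covariate (adjusted p = 0.0578 for Mt2 and 0.141 for Gstt1).

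Ptges fell, and Ptger3 and Ptgfr rose; no list of prostaglandin genes was counted. Ptges, which makes prostaglandin E2, was at 8.27, 8.32 and 8.26 against 6.34, 6.19 and 6.65, without overlap (-1.89 ± 0.25, adjusted p = 0.00499), and gave -1.63 in replicate 14. Ptger3, a receptor of prostaglandin E2 that restrains lipolysis, had the largest rise of all called genes. It was at 4.80, 4.68 and 5.84 against 8.20, 7.40 and 7.57 (2.62 ± 0.46, 6.13-fold, adjusted p = 0.0205) and gave 2.46 in replicate 14. A second, dim probe set of Ptger3, at 3.24 on average, differed by 0.02 ± 0.19. Ptgfr, the receptor of prostaglandin F2-alpha, rose by 1.00 ± 0.19 (adjusted p = 0.0309). Hpgd, which inactivates prostaglandins, read 6.96, 6.91 and 6.96 against 8.55, 8.65 and 8.61 and missed the threshold (1.66 ± 0.35, adjusted p = 0.0523). With the Gapdh covariate Ptges kept its call, while those of Ptger3 (adjusted p = 0.118) and Ptgfr (adjusted p = 0.157) were lost. Ptgfr and Hpgd were named after their values were seen.

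Of the matrix genes, Postn, Lum and Mmp12 rose. Postn, periostin, was at 7.21, 7.42 and 7.58 against 9.08, 9.00 and 9.02, and the 3 high-fat arrays were nearly equal (1.62 ± 0.34, adjusted p = 0.0495). Lum, lumican, a proteoglycan that binds collagen fibrils, rose by 1.44 ± 0.29 (adjusted p = 0.0401). These 3 were the only ones called of 54 measured, and the list median was -0.02. With the Gapdh covariate all 3 calls were lost: Postn differed by 1.05 (adjusted p = 0.277), Lum by 0.88 (adjusted p = 0.173) and Mmp12 by 1.46 (adjusted p = 0.269). Postn and Mmp12 also lost their calls without any one of the 6 arrays. Col1a1 overlapped between diets. Endothelial markers had the lowest median among the 12 lists plotted, -0.42 over 17 members and -0.28 in replicate 14. Their summed signal was 3920 to 4900 on the low-fat arrays and 3320, 2780 and 3720 on the high-fat arrays. None was called, and 7 were lower and none higher at an unadjusted p under 0.05. Over all 8251 genes, 594 were lower and 554 higher at that threshold. Tie1, a receptor of endothelial cells, gave 7.76, 7.63 and 7.62 against 5.76, 5.36 and 6.97, with replicate 14 between the others and the low-fat arrays. Upk3b, a mesothelial marker, fell by 1.02 (SE 0.15, adjusted p = 0.00831) and was the only one called of 8 measured.

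Other large called differences fell in no list described above. Atf3, a stress-induced transcription factor, rose by 2.26 ± 0.47 (adjusted p = 0.0488) with replicate 13 highest, at 9.88 against 7.77 and 7.93 in the other high-fat arrays. Its other probe sets differed by 0.21 ± 0.19 and -0.10 ± 0.20. Apobec1, an RNA-editing cytidine deaminase, was at 6.49, 6.48 and 6.94 against 8.95, 8.57 and 8.82 (2.14 ± 0.23, adjusted p = 0.000817). Anxa3, an annexin, rose by 2.00 ± 0.38 (adjusted p = 0.0309). Apcdd1, an inhibitor of Wnt signalling, was at 8.44, 8.04 and 8.08 against 7.03, 6.28 and 6.75 (-1.50 ± 0.20, adjusted p = 0.00499). Scn7a, a sodium channel, fell by 1.60 (SE 0.27, adjusted p = 0.0169), Tpp2, a large peptidase, by 1.43 (SE 0.26, adjusted p = 0.022), and Tgfbr3, the betaglycan coreceptor, by 1.32 (SE 0.27, adjusted p = 0.0424). With the Gapdh covariate Atf3, Anxa3, Scn7a, Tpp2 and Tgfbr3 lost their calls, with adjusted p values from 0.096 to 0.276. Of the reference genes, Hprt differed by 1.49 ± 0.36 (adjusted p = 0.0867). The brightest Actb probe set differed by 1.25 ± 0.62 and the other by -2.39 ± 0.54, with an adjusted p of 0.382 and 0.0764. The opposite signs of these Actb probe sets stand beside the Actb control signal given above.

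The B6 fat arrays gave 23 called genes (0.279% of those tested), and 11 genes were called in both strains, all in the same direction. These are 17.74% of the 129S6 calls and 47.83% of the B6 calls. The strains share no arrays, but both tests use the same estimate of each gene's spread. The 2 sets of calls are therefore not independent. The shared genes rose in 7 cases, Scd2, Apobec1, Cstb, Lgmn, Ccl9, Rgs10 and Lum, and fell in 4, Nnat, Ptges, Pxmp2 and Upk3b. Of the 62 genes called in 129S6, 59 had the same sign in B6. The share of same signs over all genes was not counted. The 59 therefore do not show that called genes matched between strains more often than other genes. Nnat differed by -3.03 ± 0.49 in B6, beside -3.76 in 129S6. Lep differed by 0.66 ± 0.18 in B6 (adjusted p = 0.155), beside 1.94, and Retn by -0.49 ± 0.31 (adjusted p = 0.418), beside -2.24. Testing the diet difference of 129S6 against that of B6 gave 0 called genes (0%), with 232 at an unadjusted p under 0.05 and a smallest adjusted p of 0.722. The smallest p was that of Tst, whose diet difference was -0.28 ± 0.21 in B6 and -1.98 in 129S6, a strain difference of -1.70 ± 0.32 (unadjusted p = 0.000125). Next came Sox7, a factor of endothelial cells, with -0.98 ± 0.18 in 129S6 and 0.18 ± 0.16 in B6 (unadjusted p = 0.000313). For Lep the strain difference was 1.27 ± 0.27 (unadjusted p = 0.00038, adjusted p = 0.722). No gene is therefore shown to respond differently in the 2 strains. Of the B6 high-fat arrays, replicate 7 had a Gapdh signal of 6.03 and replicate 8 of 2.36, both above every low-fat array of either strain. The strain test called 6 genes without replicate 7 and 0 without replicate 8.

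**Figure D5:**
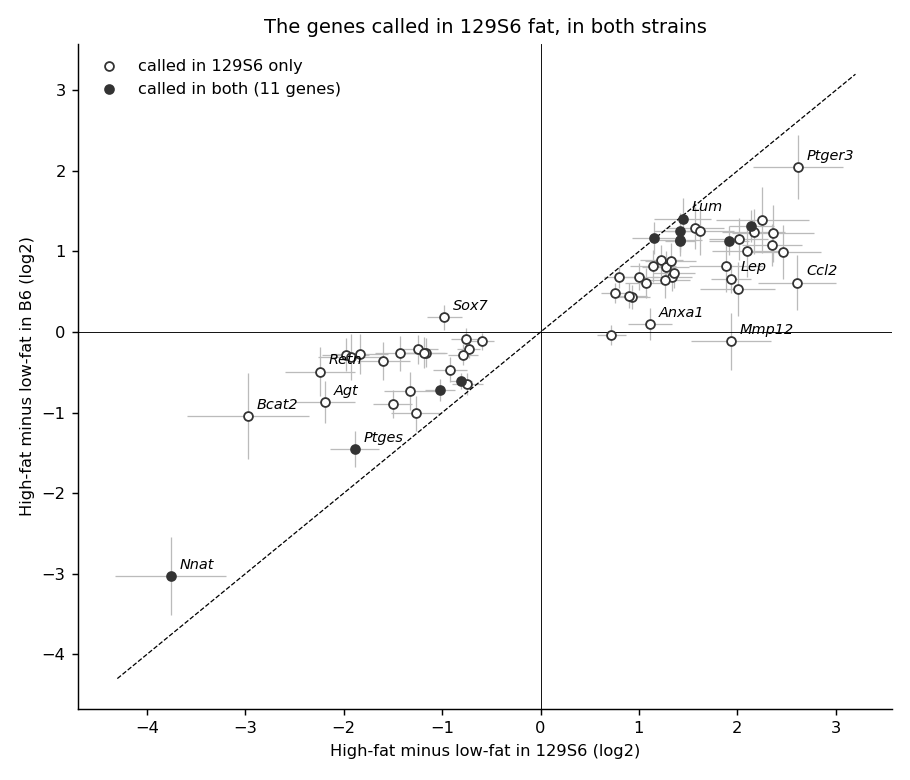
Diet difference (high-fat minus low-fat, log2) of the 62 genes called in 129S6 epididymal fat, in 129S6 (x axis) and in B6 (y axis), with 1 point per gene and bars of 1 SE; filled points are the 11 genes called in both strains and the dashed line marks equal differences. Nnat lies far down in both strains, and Sox7 and Mmp12 are among the 3 genes whose signs differ.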

How the data were processed

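Total RNA of 6 pools of epididymal fat was measured on Affymetrix 1-colour arrays. The deposited values are log2 signals that the authors made with RMA, per the submitters' processing notes, which subtracts background, equalises the arrays and summarises probes; its version was not given in the sources used here. Because arrays are equalised, only changes relative to the whole profile are seen, and precision depends on the number of arrays. Of 12488 probe sets, 10833 had 1 gene symbol, 10817 of these matched by Entrez gene ID. Each of 8251 genes was read from its brightest probe set on the 14 fat arrays.

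A mean for each of 4 fat groups was fitted with limma 3.58.1 in R 4.3.3, two-sided, with Benjamini-Hochberg adjustment, so that all fat arrays share 1 estimate of the spread. The fit was run on simulated data with independent noise and the same spread of a gene in all groups. That run cannot show how the fit behaves when arrays of a group deviate together. Samples were grouped by the tissue, strain and diet of the labels. Arrays were numbered in 2 runs, up to 2150 (all B6 fat and low-fat replicate 9) and from 2167; the runs stand for array numbers only. Lists were described by counts and medians, with no test. Python 3.11.15 with matplotlib 3.10.9 drew the figures.

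The genes named are the 12 largest called rises and falls, up to 4 members of each of 37 lists (all bright members of marker lists), a short list, and the 5 smallest p of the strain test; the text omits some, and says where others were added. The members and lists were chosen with earlier results of these data known. Alternatives were all probe sets, plain probe sets, no dimmest genes (1 in 3), quantile normalization, only the 2 groups, a trend with robust prior, the run as a block, a covariate for the Gapdh signal, omission of 129S6 arrays whose Gapdh signal is above 3, each other probe set, and each array left out. The arrays of the second run alone, and all fat arrays without high Gapdh signal, were added after seeing the data.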

Additional observations from a re-analysis of the deposited data

How the results depend on the processing

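Among the alternatives run on all 62 genes called for diet, every one kept its direction in each; 54 of them are measured by plain probe sets and 54 lie outside the dimmest part of the genes. The count of 62 (37 higher, 25 lower) stayed within 1.5 times with all probe sets, plain probe sets, no dim genes, quantile normalization (87) and a trend with robust prior. It was 186 (143 and 43) in a fit of only the 2 groups, 11 (6 and 5) with the array run as a block, and 0 (0 and 0) in the second run alone, where 5 arrays remain. Within the block, low-fat replicate 9 is the only 129S6 array of the first run. With the Gapdh signal as a covariate it was 37 (14 higher, 23 lower; 25 of the 62 genes kept), which turns the share of higher calls from 59.68% to 37.8%; the share was 76.9% for the 2 groups alone and 67.3% without dim genes. Without the 2 high-fat arrays of high Gapdh signal it was 3 (3 and 0), namely Cstb, Fam20c and Cyp4a14, with only replicate 14 left in the group. Without all 3 fat arrays of such signal it was 137 (97 and 40), with 49 of the 62 genes kept, since the B6 spread that the groups share then lacks that array. Leaving out single arrays gave 11 to 175 calls, 6 to 65 higher and 5 to 110 lower. Without low-fat replicate 9, 10 or 11, 51, 52 or 33 of the 62 calls were lost, and without high-fat replicate 12, 13 or 14 the losses were 32, 34 or 8. The strain test called 0 genes, but 4 with the Gapdh covariate, 1 without the 2 arrays, 4 without all such arrays, and 0 to 6 with single arrays left out. The cause of the moves in the counts was not tested beyond what the settings themselves fix.

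Signs turned for some single genes. Other probe sets gave 0.187 for Tpp2, 0.281 for C2, -0.085 for Tuba1a, -0.648 and -0.105 for Atp2a3, and -0.1 for Atf3. They gave -0.098 for Scd1, -1.568 for Lpl, 0.209 for Slc2a4 and -2.391 for Actb, and the cause was not tested. Those of Tpp2, C2 and Slc2a4, and the -0.648 one of Atp2a3, were dim, at 3.13, 3.64, 4.59 and 4.41 on average. Under the Gapdh covariate, Pparg gave -0.055, Scd1 -0.039, Lpl -0.072, C1qa 0.974 and H2-Aa 0.922. Without the arrays of high Gapdh signal, C1qa gave 0.432 and H2-Aa 0.423. No paired analysis was possible because the 129S6 low-fat and high-fat arrays share no replicate number.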

Other observations

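Other gene groups showed few calls. Over all 8251 genes, 554 were higher and 594 lower at an unadjusted p under 0.05, and 4186 differences were positive. Of 70 measured genes of oxidative phosphorylation, which makes ATP in mitochondria, none was called; 45 differences were positive, 8 genes were higher and none lower at an unadjusted p under 0.05, and the median was 0.13, or 0.15 in high-fat replicate 14 alone. Cytosolic ribosomal proteins, 36 in number, had a median of -0.02, with none called. T cell and B cell markers, 16 and 14 measured, had medians of 0.01 and 0.04, again with none called. Ucp1, the uncoupling protein of thermogenic fat cells, read 5.69, 7.11 and 5.61 on the low-fat arrays and 7.98, 6.69 and 7.92 on the high-fat arrays, so the groups overlapped (1.39 ± 0.37, adjusted p = 0.132 by limma). Of 14 measured clock genes none was called, and 5 were lower and none higher at an unadjusted p under 0.05. Nr1d1, a repressor of the clock, was at 7.38, 7.77 and 7.65 against 6.56, 6.49 and 6.60, with every high-fat array below (-1.05 ± 0.25, adjusted p = 0.0867 by limma). The time of day at which tissue was taken was not given in the labels.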
